A study of Mus musculus with 21 samples.

Results

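The CHD family of chromatin remodellers (Chd1 to Chd9) was followed through 21 libraries of E14.5 mouse forebrain and kidney. The members were taken by gene symbol, and each of the 9 symbols matched a single row among 23827 rows per library. TRAP (translating ribosome affinity purification) pulls down ribosomes that carry a tagged subunit, so its RNA is the translatome, while total RNA of the same organ is the transcriptome. All embryos were at embryonic day 14.5 and carried Gt(ROSA)26Sor-mCherry-Rpl10a in 1 copy, a ubiquitously driven tagged ribosomal protein gene that Cre switches on, which was targeted in a single embryonic stem cell clone. Embryos of genotype Sox2Cre+/-;Gt(ROSA)26Sor-mCherry-Rpl10a+/-, in which Cre acts throughout the embryo, gave the Brain and Kidney transcriptomes and translatomes. Embryos of genotype Cdh5CreERT2+/-;Gt(ROSA)26Sor-mCherry-Rpl10a+/-, in which tamoxifen given to the dam activates Cre in endothelial cells, gave the Brain EC and Kidney EC translatomes. Embryos of genotype Emx1Cre+/-;Gt(ROSA)26Sor-mCherry-Rpl10a+/-, in which Cre marks the dorsal telencephalon and its descendants, gave the Brain Emx1 translatome. Each of the 7 groups had 3 samples, and each sample was made from tissue of 1 or more embryos.

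CHD proteins use an ATPase of the Snf2 type to slide, space or evict nucleosomes, and a pair of chromodomains near their start contacts the nucleosome. Chd1 and Chd2 accompany transcribing RNA polymerase and bind DNA directly. Chd3, Chd4 and Chd5 carry PHD fingers that read histone tails and serve as alternative ATPases of the NuRD complex, which couples remodelling to histone deacetylation. Chd6, Chd7, Chd8 and Chd9 share a BRK domain. In people, mutations of CHD2 cause epilepsy, of CHD7 the CHARGE syndrome, which can include kidney malformation, and of CHD8 autism, and CHD5 is known for its expression in the nervous system.

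The libraries held between 21760652 and 79231692 reads on genes, and the members had from 13 reads (Chd5 in a kidney library) to 81147 reads (Chd3 in an Emx1 library). Pairs of samples within a group correlated at Pearson's r of 0.992 to 0.999 (21 pairs), and no 2 files of a group were identical. The correlations used log2(RPKM + 1) of rows with a mean of at least 1 RPKM. The defining markers matched the labels: Cdh5 was at 370 RPKM in the Brain EC translatome against 16.6 RPKM in the Brain translatome, and at 359 against 51.2 RPKM in the kidney. Emx1 was at 95.8 RPKM in the Brain Emx1 translatome against 51.2 RPKM in the Brain translatome. The endothelial pull-downs also held RNA of other cells: the summed RPKM of 6 neuron markers was 403 to 509 in the Brain EC translatome and 2171 to 2189 in the Brain translatome. In the Kidney EC translatome, 10 markers of kidney epithelium and progenitors summed to 82.2 to 84.9 RPKM, against 369 to 400 RPKM in the Kidney translatome. Not every list fell to this extent. The sum of 6 neural progenitor markers was 1666 to 1824 RPKM in Brain EC and 1521 to 1661 RPKM in the Brain translatome, although 4 of them were called lower and 2 higher. Pericyte markers summed to 97 to 109 RPKM in Kidney EC and 101 to 118 RPKM in the Kidney translatome, with 3 called lower and 2 higher.

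The promoters of Chd4, the ubiquitous NuRD ATPase, and of its relative Chd5 are shown. Chd5 was the member whose level differed most between the 2 organs, and Chd4 its relative with high levels in both. Both windows run from 250 bases before to 50 bases after the RefSeq transcript start nearest the gene's annotated start, on the plus strand (RefSeq, GRCm38.p6), and capitals mark every CG dinucleotide. The Chd4 window is chr6:125095731-125096030 and the Chd5 window chr4:152338401-152338700.
Chd4: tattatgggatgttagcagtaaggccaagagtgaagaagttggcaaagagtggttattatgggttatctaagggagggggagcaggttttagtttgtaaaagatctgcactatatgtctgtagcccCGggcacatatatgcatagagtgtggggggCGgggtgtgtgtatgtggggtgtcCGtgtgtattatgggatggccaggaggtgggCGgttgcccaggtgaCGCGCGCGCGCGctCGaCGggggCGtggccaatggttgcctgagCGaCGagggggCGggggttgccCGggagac
Chd5: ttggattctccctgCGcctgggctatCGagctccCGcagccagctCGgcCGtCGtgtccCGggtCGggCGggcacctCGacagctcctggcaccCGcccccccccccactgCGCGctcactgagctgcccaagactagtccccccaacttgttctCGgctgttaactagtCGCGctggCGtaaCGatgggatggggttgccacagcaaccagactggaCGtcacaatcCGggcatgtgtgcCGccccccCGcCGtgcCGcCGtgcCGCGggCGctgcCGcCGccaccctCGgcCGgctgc
The Chd4 window held 17 CG dinucleotides, a number reached or passed by 31.4% of the 32851 promoter windows in the table. The Chd5 window held 32, reached or passed by 9.52% of windows, where the median window held 7. The GC box GGGCGG, searched on both strands, occurred 3 times in each of the 2 windows, and 35.7% of all windows held at least 1. Both windows thus held more CG dinucleotides than the median window, the larger number being that of Chd5. Of the 9 members, 5 had an entry in the promoter table.

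Chd3 and Chd4 were by far the most abundant members in RPKM (reads scaled by transcript length and by the number of mapped reads, so comparable between genes). The summed RPKM of all 9 members was highest in the Brain transcriptome, 431 ± 21.1 (SD, n = 3), and lowest in the Kidney translatome, 206 ± 10.2 (SD, n = 3). Chd3, Chd4 and Chd5 together made up between 59.1% (Kidney EC translatome) and 74.6% (Brain translatome) of that sum. The Chd6 to Chd9 group made up 18.2% to 28.0%, with the highest share in the Brain EC translatome. Chd1 and Chd2 together made up 7.18% of the sum in the Brain translatome and 15.6% in the Kidney EC translatome.

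**Figure D1:**
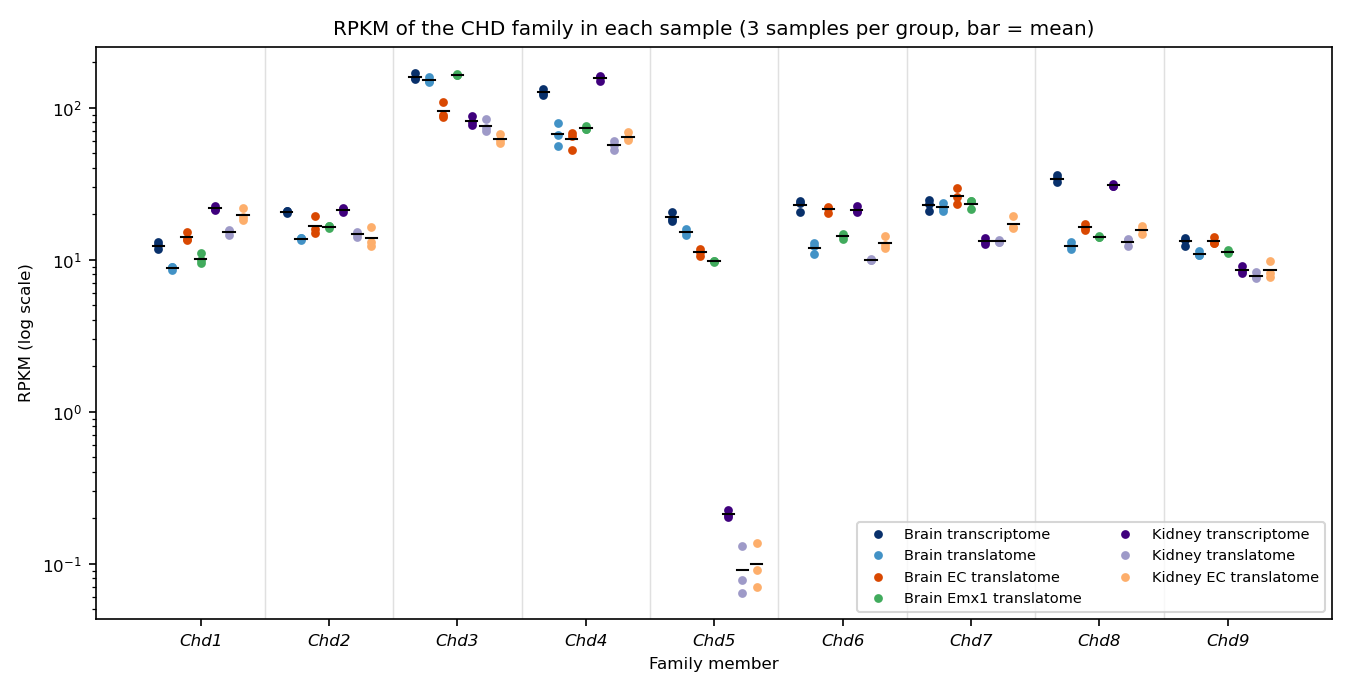
RPKM (log scale) of each family member in each of the 21 samples, 3 points per group with the mean as a bar. Chd3 and Chd4 are at 52.6 RPKM or more in every sample, 6 members lie between 7.53 and 35.8 RPKM, and Chd5 falls from 9.60 to 20.6 RPKM in brain samples to 0.0640 to 0.226 RPKM in kidney samples.

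**Figure D2:**
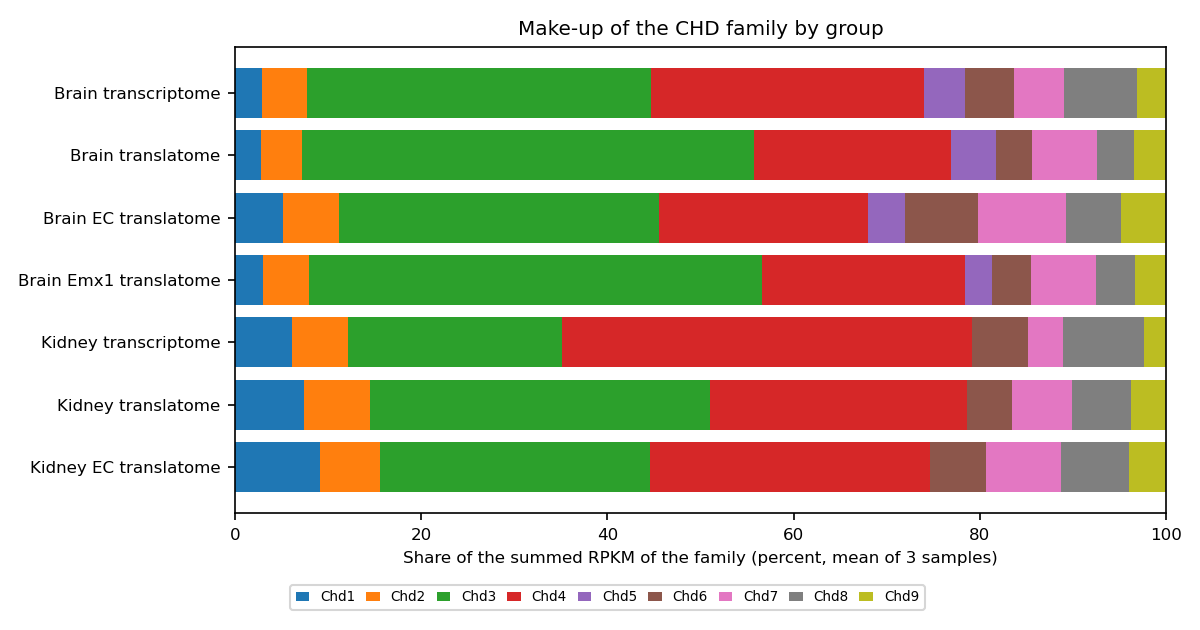
Share of the family's summed RPKM held by each member (percent, mean of 3 samples per group). Chd3 takes 48.5% of the sum in the Brain translatome and Chd4 takes 44.0% in the Kidney transcriptome.

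Chd5 (NM_001081376 and NM_029216, chr4:152338651-152390194, plus strand, up to 42 exons) was the member whose level depended most on the organ. It measured 18.0, 18.4 and 20.6 RPKM in the Brain transcriptome samples and 14.4, 15.2 and 15.9 RPKM in the Brain translatome samples. In the kidney it measured 0.208, 0.203 and 0.226 RPKM in the transcriptome and 0.0785, 0.131 and 0.0640 RPKM in the translatome, on 66 to 99 and 13 to 29 reads. The organs did not overlap: Chd5 was 103-fold higher in the Brain than in the Kidney transcriptome (log2 fold change 6.68, SE 0.0803, adjusted p = 2.9e-13) and 190-fold higher between the translatomes (log2 fold change 7.57, SE 0.127, adjusted p = 1.1e-14). Neuron markers moved the same way, with a sum of 1949 RPKM in the Brain and 15.0 RPKM in the Kidney transcriptome, and their part in the Chd5 difference was not tested. In bulk RNA, fewer cells of a type and less RNA per cell cannot be told apart.

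Chd3 (NM_146019, chr11:69343273-69369406, minus strand, 40 exons) was also higher in the brain. Its levels were 169, 153 and 157 RPKM in the Brain transcriptome and 87.5, 77.0 and 80.6 RPKM in the Kidney transcriptome, a log2 fold change of 1.15 (SE 0.0764, adjusted p = 1.3e-07). Chd4 (NM_145979, chr6:125095981-125130591, plus strand, 39 exons) went the other way in RPKM, with 133, 120 and 125 in the Brain transcriptome against 159, 149 and 160 in the Kidney transcriptome. These Chd4 values did not overlap in RPKM, yet the fitted log2 fold change of -0.12 (SE 0.0732) did not pass the threshold (adjusted p = 0.19). By RPKM, Chd3 was thus the more abundant of the pair in brain total RNA and Chd4 in kidney total RNA. The Chd3 to Chd4 ratio, which does not depend on how libraries are scaled, was 1.25 to 1.28 in the Brain transcriptome and 0.504 to 0.549 in the Kidney transcriptome.

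In ribosome-bound RNA the balance was shifted towards Chd3 in both organs. The Chd3 to Chd4 ratio was 2.02, 2.29 and 2.62 in the Brain translatome and 1.47, 1.21 and 1.33 in the Kidney translatome, so that no translatome sample overlapped the transcriptome of its organ. With 3 samples against 3, an exact permutation test cannot go below p = 0.10, so the ratio itself was not tested. The Brain Emx1 translatome had 2.18 to 2.30 and thus lay within the range of the Brain translatome. The Brain EC translatome had 1.38, 2.08 and 1.28, with 1 sample well above the others, and the Kidney EC translatome had 0.888 to 1.05.

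**Figure D3:**
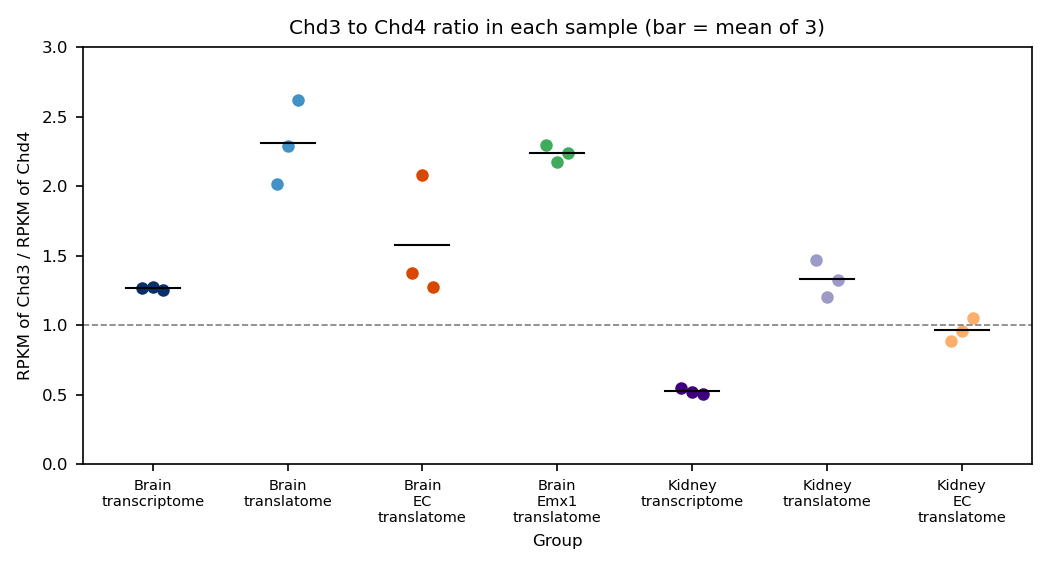
Ratio of Chd3 RPKM to Chd4 RPKM in each sample (vertical axis, from 0) by group, with the mean of 3 samples as a bar and a dashed line at 1. The Kidney transcriptome samples lie between 0.504 and 0.549 and the Brain translatome samples between 2.02 and 2.62.

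Among the other members, those of the Chd6 to Chd9 group were mostly higher in the brain, while Chd1 was called higher in the kidney. In all, 5 members were higher and 1 was lower in the Brain than in the Kidney transcriptome (edgeR's quasi-likelihood test, adjusted p under 0.001), where 53.5% of 19841 rows were called, 27.2% higher and 26.3% lower. Between the translatomes the counts were also 5 and 1, where 53.4% of 19241 rows were called, 27.2% higher and 26.2% lower. The share of members called, 6 of 9, was thus close to that of all rows, and the median log2 fold change of the members was 0.34 for transcriptomes and 0.47 for translatomes, against -0.02 and -0.01 for all rows tested.

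Chd7 (NM_001081417, chr4:8690406-8867659, plus strand), needed for neural crest and inner ear development, measured 24.5, 21.0 and 23.2 RPKM in the Brain transcriptome and 13.9, 13.1 and 12.6 RPKM in the Kidney transcriptome. It was 1.98-fold higher in the brain in total RNA (log2 fold change 0.99, SE 0.0633, adjusted p = 9.8e-08) and 1.92-fold in ribosome-bound RNA (0.94, SE 0.0572, adjusted p = 3.4e-09). Chd9 (NM_177224, chr8:90828352-91054516, plus strand, 40 exons), the longest member at 11610 bases, was 13.5, 12.4 and 13.9 RPKM in the Brain transcriptome and 9.00, 8.41 and 8.16 RPKM in the Kidney transcriptome. Its log2 fold changes were 0.82 (adjusted p = 2.1e-07) and 0.68 between the translatomes (adjusted p = 1.2e-07). Chd8 passed the threshold only between the transcriptomes (0.34, adjusted p = 1.0e-04), with a value of 0.11 (adjusted p = 0.11) between the translatomes. Chd6 passed it in the main fit only between the translatomes (0.47, adjusted p = 1.2e-05), with 0.29 (adjusted p = 2.2e-03) between the transcriptomes. There it did pass without Brain transcriptome replicate 2 (6.2e-05) or Kidney transcriptome replicate 1 (9.6e-04). It also passed there with DESeq2 (1.9e-04), in 1 fit of all 21 samples (9.1e-04) and with the replicate number as a block (6.9e-04). Chd4 had 0.44 (adjusted p = 1.7e-03) between the translatomes and passed without Brain translatome replicate 3 (0.55, adjusted p = 1.1e-04). Chd4 also passed there with DESeq2 (5.5e-05), in 1 fit of all 21 samples (5.3e-04) and with the block (3.3e-04). Same-numbered samples of the 2 organs did not all deviate together, with r of -0.089 to 0.495 between transcriptomes and -0.048 to 0.338 between translatomes. The number is thus not a shown pairing of the organs. The change of the organ difference with the RNA fraction did not pass the threshold for Chd8 or Chd6 (interaction, adjusted p = 5.6e-02 for Chd8 and 0.23 for Chd6).

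Chd1 (NM_007690, chr17:15704967-15772610, plus strand, 36 exons) was the member called lower in the brain, in both RNA fractions. It measured 13.0, 11.7 and 12.4 RPKM in the Brain transcriptome and 22.6, 21.0 and 21.5 RPKM in the Kidney transcriptome, 1.54-fold lower in the brain (log2 fold change -0.62, SE 0.0508, adjusted p = 7.3e-07). Between the translatomes it was 1.51-fold lower (-0.59, SE 0.0532, adjusted p = 2.2e-07). Chd2 (NM_001081345, chr7:73426638-73541830, minus strand, 39 exons) had similar levels in both organs, 21.0, 20.1 and 21.0 RPKM in the Brain transcriptome and 21.9, 20.6 and 21.5 RPKM in the Kidney transcriptome. Its log2 fold changes of 0.15 (adjusted p = 7.4e-03) and 0.11 (adjusted p = 6.6e-02) did not pass the threshold. Of the Chd2 exons, 2628 bases are shared with 1810026B05Rik on the same strand, so reads of these genes cannot be told apart. Scaling by total reads in place of TMM (edgeR's trimmed mean of M-values, which sets the typical gene to no change) moved the median of expressed mRNAs by -0.18 between the transcriptomes and -0.19 between the translatomes. Under it, the Chd8 call between the transcriptomes and the Chd6 call between the translatomes were lost (adjusted p = 9.0e-03 and 1.3e-03).

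A comparison of translatome with transcriptome asks which mRNAs are more or less often on ribosomes than their total amount would give. The paper could not fully exclude that such differences partly come from biases of the method, such as unequal tagged protein between cell types. Marker sums also differed between the Brain transcriptome and translatome: endothelial 129 and 196 RPKM, neuron 1949 and 2178 RPKM, and ventral telencephalon 265 and 221 RPKM. Their part in the members' values was not tested. No member was called higher on ribosomes, and of those called lower, Chd4, Chd6 and Chd8 had the greatest drops in both organs. In the brain 6 of 9 members were lower in the translatome, where 18.5% of 19446 rows were called lower, 18.6% higher and 37.1% in either direction. In the kidney 5 of 9 were lower, where 15.8% of 19336 rows were called lower, 14.9% higher and 30.7% in either direction. Over the 9 members the median value was -0.47 in brain and -0.54 in kidney, against -0.01 and -0.03 over all rows.

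CHD transcripts are long, between 6218 bases (Chd3) and 11610 bases (Chd9) as derived from the deposited reads and RPKM, against a median of 2548 bases for mRNA rows. The matched GENCODE transcripts differ from the derived lengths, with 7261 bases for Chd3 and 6697 for Chd4, where 6477 was derived for Chd4. The level of Chd3 relative to Chd4 in RPKM therefore depends on the length used. Length moved with the translatome values: the 1171 mRNA rows in the members' length range and with a mean of at least 1 RPKM had a median of -0.39 in brain and -0.19 in kidney, and 54.1% and 36.7% of them were called lower. The part of length in the members' values was not tested.

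Chd8 (NM_201637, chr14:52198151-52257780, minus strand, 37 exons), which binds beta-catenin and CTCF, had the greatest drop in the brain. It measured 35.8, 32.1 and 34.4 RPKM in the Brain transcriptome and 13.1, 12.2 and 11.7 RPKM in the Brain translatome, 2.71-fold lower (log2 fold change -1.44, SE 0.0587, adjusted p = 2.3e-10). In the kidney it measured 31.5, 30.3 and 30.6 RPKM in total RNA and 13.6, 13.4 and 12.3 RPKM on ribosomes, 2.35-fold lower (-1.23, SE 0.0449, adjusted p = 3.2e-08). Total and ribosome-bound samples did not overlap in either organ. An antisense gene, Gm26590, shares 953 exon bases with Chd8, and the library kit did not mark the strand.

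Chd4 measured 79.4, 65.7 and 55.9 RPKM in the Brain translatome, all below the 120 to 133 RPKM of the Brain transcriptome (log2 fold change -0.89, SE 0.0970, adjusted p = 2.2e-06). The kidney drop was the greatest of any member there, to 57.1, 60.7 and 52.8 RPKM from 149 to 160 RPKM, 2.74-fold (-1.46, SE 0.0646, adjusted p = 7.0e-08). Its NuRD relative Chd3 stood apart from it. Chd3 measured 160, 150 and 147 RPKM in the Brain translatome and 83.8, 73.1 and 70.0 RPKM in the Kidney translatome, both overlapping the transcriptome, and its log2 fold changes were -0.04 (SE 0.0608, adjusted p = 0.61) and -0.11 (SE 0.0746, adjusted p = 0.26).

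Chd6 (NM_173368, chr2:160946978-161109075, minus strand, 37 exons) was 1.86-fold lower on ribosomes in brain and 2.14-fold lower in kidney. It measured 24.2, 20.6 and 23.6 RPKM in total RNA of the brain and 12.9, 12.2 and 10.9 RPKM on ribosomes (log2 fold change -0.90, SE 0.0711, adjusted p = 8.9e-08). In the kidney the values were 22.4, 21.0 and 20.6 RPKM against 10.1, 9.93 and 9.92 RPKM (-1.09, SE 0.0423, adjusted p = 3.7e-08). Chd1 and Chd2, the pair linked to transcription elongation, fell by less and to a similar extent in both organs. Their log2 fold changes were -0.47 (adjusted p = 4.4e-06) and -0.56 (adjusted p = 1.1e-07) in brain, and -0.52 (adjusted p = 3.4e-06) and -0.54 (adjusted p = 1.9e-06) in kidney.

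Chd7 did not pass the threshold in either organ. Its values of 23.5, 21.8 and 20.7 RPKM in the Brain translatome and 13.0, 13.4 and 13.1 RPKM in the Kidney translatome overlapped the transcriptome, with log2 fold changes of -0.03 (SE 0.0650, adjusted p = 0.74) and 0.00059 (SE 0.0435, adjusted p = 0.99). Chd9 had -0.25 in brain (adjusted p = 1.2e-03) and -0.13 in kidney (adjusted p = 6.9e-02). Chd5 was lower in the brain by a small amount (-0.30, SE 0.0613, adjusted p = 8.2e-04). In the kidney its value was -1.21 (SE 0.256, adjusted p = 2.3e-03), which rests on 13 to 99 reads per library.

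Total and ribosome-bound libraries with the same number came from the same tissue, and a fit with that pairing as a block also called Chd9 in brain (adjusted p = 9.1e-05) and Chd5 in kidney (adjusted p = 7.8e-08). The block raised edgeR's prior degrees of freedom, the weight given to the spread shared by all rows, from 9.47 to 23.1 in brain. In kidney they went from 5.98 to infinite, so the Chd5 p-value there used no spread of that row's own. The sequencing lane of the Brain translatome held all 3 of its libraries and 1 Brain transcriptome library. Within it the members' values ran from -1.52 (Chd8) to -0.13 (Chd3), with Chd5 at -0.24. Another lane held all 3 Kidney transcriptome libraries and 1 Kidney translatome library. There the values ran from -1.72 (Chd5) to -0.0069 (Chd7), with Chd4 at -1.56 and Chd8 at -1.32. In both lane fits the lone library was assumed to vary like the other group, and the spread came from 3 libraries. Their p-values would carry no spread of the lone arm, so only effect sizes are given. With all libraries kept, the Chd5 call in brain ended with the filter of 10 reads in 3 samples (adjusted p = 1.1e-03). It ended in 1 fit of all 21 samples too (1.8e-03). The Chd5 call in brain also ended without Brain transcriptome replicate 3 (adjusted p = 4.4e-03), Brain translatome replicate 1 (3.1e-03) or Brain translatome replicate 2 (3.4e-03). Chd9 passed in brain with DESeq2 (adjusted p = 1.0e-04), and in edgeR with RLE factors (7.2e-04) or total reads (3.7e-04). It passed there without Brain transcriptome replicate 2 (adjusted p = 7.0e-05) or Brain translatome replicate 3 (8.3e-04). Chd5 passed in kidney without Kidney translatome replicate 2 (5.3e-04) and in 1 fit of all 21 samples (4.1e-05).

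**Figure D4:**
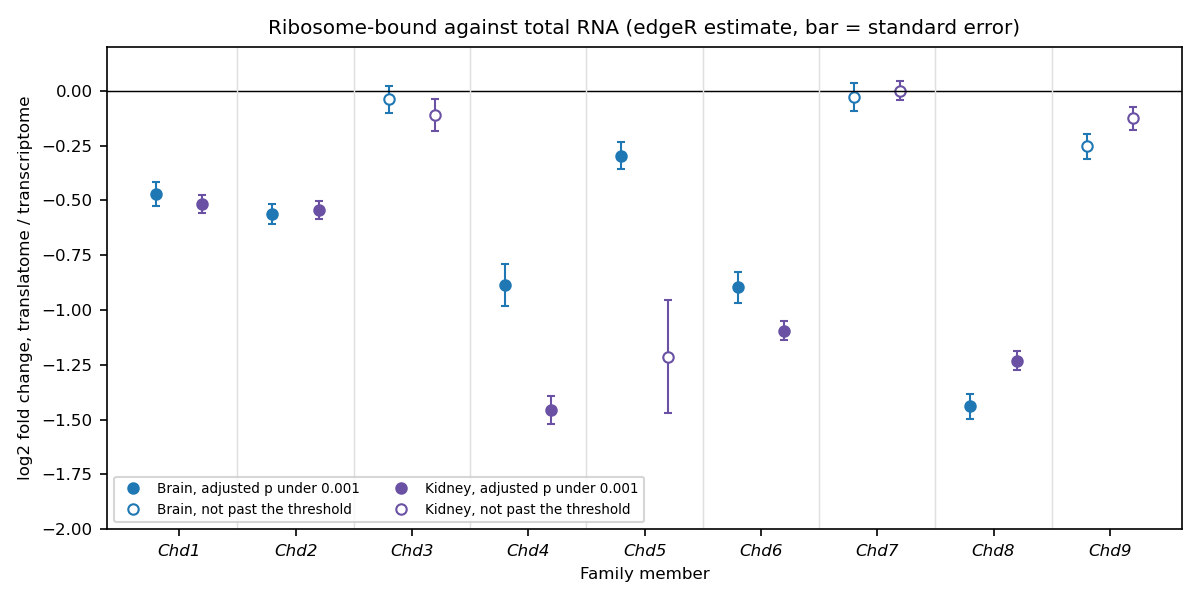
Fitted log2 fold change of translatome against transcriptome for each member (points, with standard error bars) in brain and kidney, filled where the adjusted p is under 0.001. Chd4, Chd6 and Chd8 lie between -1.46 and -0.89 in both organs, while Chd3 and Chd7 lie between -0.11 and 0.00059.

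Whether the translatome values against the transcriptome differed between the organs was tested as an interaction over 12 libraries. Of the 9 members, 0 passed the threshold in edgeR and 3 had an unadjusted p under 0.05, where edgeR called 6.47% of 20108 rows, 2.35% higher and 4.12% lower. DESeq2 called 2 members, but it also called more rows in all than edgeR. So did the fit with the tissue pairing as a block (row counts in the closing section). The greatest values were those of Chd5 (0.89, SE 0.208, adjusted p = 5.3e-03) and Chd4 (0.55, SE 0.141, adjusted p = 9.6e-03), positive where the drop was smaller in brain. Both passed with DESeq2 (adjusted p = 8.7e-04 and 4.2e-04) and in the fit with the tissue pairing as a block (adjusted p = 5.5e-04 and 1.9e-06). That block fit had 30.0 prior degrees of freedom, against 7.32 without the block. Without Kidney translatome replicate 2, edgeR called Chd5 (1.24, adjusted p = 7.8e-04). Chd6 and Chd8 had 0.18 (adjusted p = 0.23) and -0.23 (adjusted p = 5.6e-02).

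Related remodellers and partners of the CHD proteins were read in the same fits, from 5 lists, where 18.5% of all rows were lower and 18.6% higher in brain, and 15.8% and 14.9% in kidney. Of the mRNA rows of the CHD members' length, 54.1% and 36.7% were lower, and the lengths of the list genes were not compared. Of 17 other ATPases of the Snf2 type, 10 were lower in the Brain translatome and 16 in the Kidney translatome, with medians of -0.58 and -0.53. Those with the greatest change in brain were Btaf1 (-1.42), which removes TATA-binding protein from DNA, Ep400 (-1.35), the ATPase of a histone exchange complex, and Smarcad1 (-1.07). In the kidney they were Atrx (-1.06), which helps deposit histone variants, Ep400 and Btaf1 (-0.95).
Of 12 NuRD partners of Chd3, Chd4 and Chd5, 2 were higher in the Brain translatome, the methyl-CpG binding proteins Mbd3 (0.67) and Mbd2 (0.63), with a median of 0.01 over the list. In the kidney 2 were higher, Mbd2 (0.80) and Mbd3 (0.43), and 3 were lower, among them Gatad2b (-0.46), with a median of -0.05. Of 26 BAF and PBAF subunits, 8 were higher and 8 lower in brain, and 6 higher and 6 lower in kidney, with Smarcc2, a core subunit, at -0.95 and -0.98. In brain Bcl7c (0.82) and Bcl7b (0.63) had the next largest changes, and in kidney Smarca2 (0.79), an ATPase of the complex, and Pbrm1 (-0.77).
Of 8 Paf1 and FACT subunits, elongation factors that work with Chd1, 1 was higher and 3 lower in brain, and 6 were lower in kidney. Leo1 had the greatest change in both (-0.78 and -0.96), followed by Wdr61 (0.45) and Supt16 (-0.42) in brain and Paf1 (-0.66) and Supt16 (-0.64) in kidney. Of 5 genes of the Wdr5 module and Ctcf, partners of Chd8, 1 was higher and 2 lower in brain, and 1 higher and 3 lower in kidney. The higher one was Dpy30 (1.31 and 1.19), a small histone methyltransferase subunit, and Ctcf itself was lower (-0.59 and -0.60), as were Rbbp5 in brain (-0.39) and Ash2l in kidney (-0.56).

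The endothelial pull-downs were then compared with the translatome of the whole organ, which is how the design asks for cell type enrichment. Of the 9 members, 6 were higher in the Brain EC than in the Brain translatome, where 24.8% of 19103 rows were called higher, 21.4% lower and 46.2% in either direction. In the kidney, 5 were higher in the EC translatome, where 16.7% of 18940 rows were called higher, 15% lower and 31.7% in either direction. The members had a median of 0.57 for brain and 0.54 for kidney, against -0.01 and -0.04 over all rows. Rows of the members' length moved the same way, with medians of 0.44 and 0.25 and 50.9% and 35.0% called higher, and the part of length was not tested.

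The fitted values depend on how libraries are put on 1 scale. The EC libraries have a different composition, and the members' fitted log2 values exceeded the ratio of the deposited RPKM by a median of 0.29 in brain and 0.36 in kidney. Scaling by total reads moved the median of expressed mRNAs by -0.30 and -0.37, and the share of called rows that were higher went from 53.7% to 36.1% in brain and from 52.7% to 21.7% in kidney. With that scaling 3 of the 6 brain calls held (Chd1, Chd6 and Chd8), Chd3 (-0.69, adjusted p = 2.2e-05) and Chd5 (-0.45, adjusted p = 5.3e-05) were called lower, and 2 kidney members held (Chd6 and Chd7). Each EC group was sequenced in a lane of its own, so lane and group cannot be told apart here.

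Chd6 had the greatest endothelial value in brain, and Chd1 the next. Chd6 measured 20.3, 21.9 and 22.0 RPKM in the Brain EC translatome against 10.9 to 12.9 RPKM in the Brain translatome, 2.18-fold higher (log2 fold change 1.12, SE 0.0752, adjusted p = 2.0e-08). In the kidney it measured 12.0, 12.5 and 14.2 RPKM against 9.92 to 10.1 RPKM (0.73, SE 0.0721, adjusted p = 7.1e-06). Chd1 measured 13.5, 13.7 and 15.2 RPKM in the Brain EC translatome against 8.50 to 8.88 RPKM (0.98, SE 0.0690, adjusted p = 3.4e-08), and 19.0, 18.2 and 21.7 RPKM in the Kidney EC translatome against 14.5 to 15.5 RPKM (0.73, SE 0.0755, adjusted p = 1.0e-05). The samples of both genes did not overlap with the organ translatome in either organ.

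Chd8 was higher in endothelium of both organs as well, at 15.6, 16.2 and 17.1 RPKM against 11.7 to 13.1 RPKM in brain (0.69, SE 0.0676, adjusted p = 9.4e-07) and 16.6, 14.7 and 16.0 RPKM against 12.3 to 13.6 RPKM in kidney (0.62, SE 0.0676, adjusted p = 1.5e-05). Chd7 measured 25.9, 29.8 and 23.4 RPKM in the Brain EC translatome and overlapped the 20.7 to 23.5 RPKM of the Brain translatome, with a fitted value of 0.55 (adjusted p = 1.1e-04). In the Kidney EC translatome its 16.5, 16.1 and 19.2 RPKM lay above the 13.0 to 13.4 RPKM of the organ (0.75, adjusted p = 8.6e-06). Chd7 was also the single member higher in Kidney EC than in the Kidney transcriptome. Chd9 passed in brain (0.57, adjusted p = 4.9e-06), and in kidney it had 0.49 with an adjusted p = 1.0e-03, just short of the threshold.

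None of the 3 NuRD ATPases was called in brain endothelium in the main fit with TMM. Chd3 measured 89.1, 109 and 86.8 RPKM in the Brain EC translatome, all below the 147 to 160 RPKM of the Brain translatome, with a fitted value of -0.39 (SE 0.0940, adjusted p = 2.5e-03). It passed the threshold with DESeq2 (adjusted p = 9.8e-05) and without Brain EC replicate 2 (-0.50, adjusted p = 2.4e-05). Chd4 measured 64.7, 52.6 and 67.9 RPKM, overlapping the Brain translatome (0.17, adjusted p = 0.24), and was higher in the Kidney EC translatome, at 69.3, 61.0 and 63.2 RPKM against 52.8 to 60.7 RPKM (0.54, adjusted p = 1.0e-04). Chd5 measured 10.5, 11.8 and 11.1 RPKM in the Brain EC translatome, or 73.6% of the Brain translatome mean, while the neuron marker sum was at 21.4% of it. Its fitted value was -0.15 (SE 0.0688, adjusted p = 7.1e-02), and all 6 neuron markers were lower, with a median of -1.54. With scaling by total reads Chd5 was called lower (-0.45, adjusted p = 5.3e-05). The paper used Chd5 as a neural lineage marker and reported its depletion by quantitative PCR in endothelial pull-downs of the forebrain. That measure and its scaling differ from those used here. The part of neuronal RNA in the Chd5 level of the Brain EC translatome was not tested.

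Leaving out 1 library ended 2 further brain calls: Chd2 without Brain translatome replicate 1 (adjusted p = 1.7e-03), and Chd7 without Brain translatome replicate 1 (1.2e-03) or 3 (1.0e-03). In the kidney it ended the Chd4 call without Kidney translatome replicate 3 (adjusted p = 1.1e-03), and Chd9 passed without Kidney EC replicate 2 (1.5e-04) or 3 (6.9e-04). The difference of the endothelial values between the organs was tested as an interaction. Of the members 0 passed in edgeR and 4 had an unadjusted p under 0.05, where edgeR called 25.1% of 19764 rows, 16.5% higher and 8.6% lower. DESeq2 called 1 member, and its own share of all rows is not given here. The share of calls that were higher was 65.7% in edgeR and 55.5% in DESeq2. In edgeR the members had a median of 0.097, against 0.155 over all rows. DESeq2 moved the median of expressed mRNAs by -0.093. Chd6 had the smallest adjusted p (0.42, SE 0.105, adjusted p = 3.5e-03) and passed without Kidney EC replicate 3 (0.50, adjusted p = 4.2e-04), while DESeq2 called Chd3 (-0.53, adjusted p = 5.5e-04), for which edgeR gave -0.44 (adjusted p = 1.4e-02).

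The lists are read here against 24.8% of all rows higher and 21.4% lower in brain, and 16.7% and 15% in kidney. Of the NuRD partners, 6 of 12 were higher and 2 lower in the Brain EC than in the Brain translatome, led by Mbd2 (1.40), Gatad2a (0.94) and Hdac1 (0.89), a histone deacetylase. In the Kidney EC translatome 5 of 12 were higher, led by Mta2 (0.53), Gatad2a (0.46) and Mbd2 (0.43). Of the BAF and PBAF subunits, 3 were higher and 11 lower in brain. The neuronal subunit Actl6b (-2.47) and Smarcd3 (-2.42) were lower, while Smarcd2 (2.36) was higher. Of the other ATPases of the Snf2 type, 7 were higher and 1 lower in brain, among them Chd1l (1.13), a remodeller recruited to DNA damage, Ep400 (0.86) and Ttf2 (0.84), and 5 were higher and 1 lower in kidney, where Smarca1, an ISWI ATPase, had -1.09, Ep400 0.63 and Btaf1 0.59. These list counts were made with TMM scaling, and were not remade with total reads.

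Brain and kidney endothelium were compared directly as well. Of the members, 5 were higher in the Brain EC translatome, where 20.1% of 19238 rows were called higher, 16.9% lower and 37% in either direction. Chd5 was 120-fold higher (log2 fold change 6.91, SE 0.153, adjusted p = 9.5e-11), with 10.5, 11.8 and 11.1 RPKM against 0.0697, 0.137 and 0.0908 RPKM (29 to 42 reads). The neuron marker sum was 403 to 509 RPKM in these Brain EC samples and 15.9 to 17.7 RPKM in the Kidney EC samples, and its part in this difference was not tested. Chd6 was 1.71-fold higher (0.77, adjusted p = 1.5e-05), Chd9 1.60-fold (0.67, adjusted p = 1.7e-04), Chd3 1.57-fold (0.65, adjusted p = 2.5e-04) and Chd7 1.57-fold (0.65, adjusted p = 3.1e-04). Chd1 had -0.43 (SE 0.0888, adjusted p = 1.5e-03).
Same-numbered EC samples of the 2 organs deviated together (r of 0.173 to 0.347), and with the number as a block Chd1 passed (adjusted p = 5.2e-04) while Chd3 (1.0e-03) and Chd7 (1.5e-03) did not. Without Kidney EC replicate 1, 3 members remained called, Chd3 (1.2e-03) and Chd7 (1.6e-03) being the ones lost. The Chd7 call also ended without Brain EC replicate 1 (1.1e-03) or Kidney EC replicate 2 (1.1e-03), the last of which let Chd1 pass (8.6e-04).

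The Emx1 lineage, which forms the cortex, differed less from the whole forebrain. Of the members, 3 were higher and 1 lower in the Brain Emx1 than in the Brain translatome, where 22.1% of 19006 rows were called, 9.2% higher and 12.8% lower. Chd5 was the lower one, at 9.78, 9.60 and 9.77 RPKM against 14.4, 15.2 and 15.9 RPKM, a drop to 64.1% of the mean RPKM (log2 fold change -0.58, SE 0.0476, adjusted p = 1.4e-07). The groups did not overlap, and this call held in every alternative run, those leaving out 1 library included. The neuron marker sum in the Brain Emx1 translatome was 89.7% of that in the Brain translatome, and the sum of 6 ventral telencephalon markers was at 24.5%. That of 6 dorsal telencephalon markers was at 204%, and that of 10 endothelial markers at 11.2%, while the medians of pericyte and of microglia and macrophage markers were -3.19 and -3.59. Their part in the members' differences was not tested.
Chd2 (0.31, adjusted p = 2.7e-05), Chd6 (0.30, adjusted p = 5.2e-04) and Chd8 (0.25, adjusted p = 5.4e-04) were the higher members, by 1.19-fold to 1.24-fold. These calls were fragile: 2 members in all remained called without Brain translatome replicate 2 or 3, or without Brain Emx1 replicate 1 or 2, since Chd6 and Chd8 did not pass (adjusted p from 1.1e-03 to 4.1e-03), and Chd8 did not pass without Brain Emx1 replicate 3 either (2.4e-03), where Chd1 did (6.2e-04). The share of called rows that were higher was 41.7% with TMM and 29.9% with total reads. The Emx1 libraries shared a lane with no other group, so lane and group cannot be told apart, and this comparison shares its Brain translatome samples with that of brain endothelium.

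**Figure D5:**
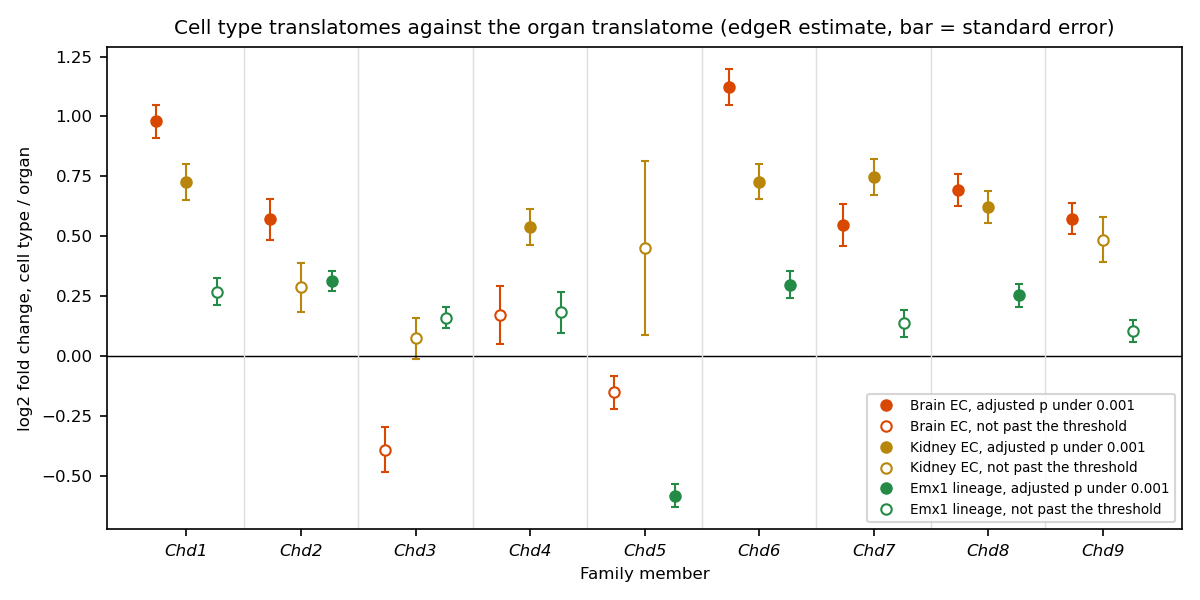
Fitted log2 fold change of each member in the Brain EC, Kidney EC and Emx1 lineage translatomes against the translatome of the same organ (points, with standard error bars), filled where the adjusted p is under 0.001. Chd1, Chd6, Chd7 and Chd8 are called higher in both endothelial pull-downs with TMM scaling (with total reads Chd6 in both, Chd1 and Chd8 in brain and Chd7 in kidney), and Chd5 is called lower in the Emx1 lineage at -0.58.

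Set against total RNA of the organ, the other reference of the study, the same pull-downs gave other calls. Of the members, 3 were higher (Chd1, Chd7 and Chd9) and 3 lower (Chd4, Chd5 and Chd8) in the Brain EC translatome than in the Brain transcriptome, where 51.1% of 19522 rows were called, 26.8% higher and 24.3% lower. In the Kidney EC translatome Chd7 was higher (0.82, adjusted p = 9.0e-06), and Chd4 (-0.85, adjusted p = 3.1e-06) and Chd8 (-0.54, adjusted p = 2.2e-05) were lower, where 41.1% of 19335 rows were called, 22.7% higher and 18.4% lower. In the Brain Emx1 translatome 4 were lower (Chd4, Chd5, Chd6 and Chd8), where 49.3% of 19471 rows were called, 25.4% higher and 23.8% lower. Chd8 thus had 0.69 against the Brain translatome and -0.73 (adjusted p = 1.0e-06) against the Brain transcriptome for the same Brain EC libraries. Chd6 had 1.12 and 0.24 (adjusted p = 1.6e-02).
The share of called rows that were higher was 52.4%, 55.3% and 51.6% in these 3 comparisons and 35.4%, 24.7% and 39.6% with scaling by total reads, whose shift of the median was -0.34, -0.44 and -0.15. With it the 3 higher calls in Brain EC were lost (Chd1 0.19, adjusted p = 2.6e-02, Chd7 0.20, 7.2e-02, and Chd9 -0.00027, 1.0e+00) and Chd3 was called lower (-0.75, 1.0e-05). In Kidney EC the added calls were lower ones, of Chd2 (-0.62, 1.8e-04), Chd3 (-0.40, 5.2e-04) and Chd6 (-0.73, 4.9e-06), and in the Emx1 lineage those of Chd1 (-0.28, 4.0e-04), Chd2 (-0.32, 2.3e-06) and Chd9 (-0.22, 4.1e-04). With TMM, in Brain EC the Chd9 call (0.34, adjusted p = 9.5e-04) ended without each of 3 Brain transcriptome and 3 Brain EC libraries in turn, and the Chd7 call without Brain transcriptome replicate 2 (1.4e-03) and the Chd5 call without Brain transcriptome replicate 3 (1.1e-03), while Chd3 passed as lower without Brain EC replicate 2 (3.1e-05). In Kidney EC, 5 members were called without Kidney EC replicate 3, with Chd2 (1.9e-04) and Chd6 (8.9e-05) added as lower, and Chd9 passed as higher without Kidney EC replicate 2 (3.9e-04). In the Emx1 lineage Chd3 passed as higher without Brain transcriptome replicate 1 (1.4e-04), and Chd2 as lower without replicate 2 (2.4e-04).

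Ordered by mean RPKM over the 7 groups, the members did not share 1 pattern. Chd5 spanned a 208-fold range, and the other members 1.55-fold (Chd2) to 2.77-fold (Chd8). Chd8 was highest in both transcriptomes, and the 5 translatomes followed from 16.3 RPKM (Brain EC) to 12.3 RPKM (Brain). Chd1 was highest in the Kidney transcriptome and Kidney EC translatome (21.7 and 19.6 RPKM, overlapping), and lowest in the Brain translatome (8.75 RPKM). Chd7 and Chd9 were highest in the Brain EC translatome (26.3 and 13.3 RPKM), where they overlapped the next group in the order. Chd3 was highest in the Brain Emx1 translatome (164 RPKM), overlapping the Brain transcriptome, and lowest in the Kidney EC translatome (62.2 RPKM).

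The rows whose log2(RPKM + 1) followed a member most closely over the 21 samples were looked up among 12746 mRNA rows with a mean of at least 1 RPKM. These correlations describe 7 groups of 3 samples and share libraries and depth, so they are not tests. Chd5 was most like Mast1 (r = 0.997), a microtubule-associated kinase, and Myo16 (r = 0.996), a myosin of neurons. Chd1 was most like Anln (r = 0.984) and Stil (r = 0.981), genes of cytokinesis and centriole assembly. Chd3 was most like Ehbp1 and Sema4f (r = 0.989 and 0.988), and Chd4 like Clk2, a kinase of splicing factors, and Aars, an aminoacyl-tRNA synthetase (r = 0.967 and 0.966). Chd8 was most like Plekhm2 and Usp48 (r = 0.985 and 0.984), Chd9 like Tanc2 (r = 0.976), and Chd7 like Slc22a23 and Rab39 (r = 0.964 for both). Chd2 was most like Sik2 and Bcorl1 (r = 0.934 and 0.925).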

How the data were processed

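The 21 libraries were made by the authors with an RNA kit that does not mark strand, mapped with RUM to mm10 (GRCm38) and counted on RefSeq genes with rpkmforgenes. The deposited files hold raw counts (reads per gene, not normalized) and RPKM values that the authors scaled by transcript length and mapped reads. Groups and replicate numbers came from the sample titles, and tissue and lane from the study's sample sheet. For each pair of groups, edgeR 4.0.16 under R 4.3.3 fitted a quasi-likelihood model with TMM scaling (glmQLFit, then glmQLFTest), or on 4 groups for the 2 interactions, over rows with at least 1 read, with Benjamini-Hochberg adjustment over all rows and a threshold of 0.001. Standard errors are those of log2 fold changes. DESeq2 1.42.0, RLE factors, total reads, a minimum of 10 reads in 3 samples, 1 fit of all 21 libraries, the replicate number as a block, fits within a lane, and leaving out each library were alternatives. Depth was 21760652 to 79231692 reads, so Chd5 in kidney (13 to 99 reads) is the member limited by counting error.

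All 9 members were named. From 5 lists of related complexes, up to 3 called genes of largest change were named where the text describes the list in a comparison. The members and lists were chosen with earlier results of these data known. The replicate numbers of total and ribosome-bound RNA mark the same tissue: deviations from the group means correlated at 0.386 to 0.617 in brain and 0.552 to 0.622 in kidney for the same number, against -0.40 to -0.15 and -0.35 to -0.25 for others. Positions and exons are from GENCODE vM21 (GRCm38), and promoters from RefSeq. Protein sequences of the members were not analysed here. Each sample was made from tissue of 1 or more embryos, and p-values measure the spread between such samples. Differences of RPKM were not tested. Some of the rows most like Chd6 and Chd9 are not reported here.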

Additional observations from a re-analysis of the deposited data

How the results depend on the processing

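Of 720 member values under alternatives that kept all libraries, 630 kept their direction and side of the threshold, 27 lost it, 47 gained it and 16 changed sign. Of 810 values with 1 library left out, the numbers were 746, 28, 19 and 17. The causes were not tested, except that the fits within a lane used fewer libraries. Limits are the low reads of Chd5 in kidney, lanes that coincide with groups, and the scaling of the endothelial libraries. With total reads, members called numbered 2 for Kidney EC against translatome (5 with TMM), 2 for Emx1 against translatome (4), 6 for Kidney EC against transcriptome (3) and 7 for Emx1 against transcriptome (4). Of all rows called with total reads, 21.7%, 29.9%, 24.7% and 39.6% were higher in these comparisons, in that order. Except where row counts are stated, the share of all rows called under an alternative is not given in this section. Such member counts are therefore not results about the members. Total reads also turned Chd2 to -0.037 and -0.081 and Chd8 to -0.081 between brain and kidney (transcriptomes, translatomes, translatomes), Chd4 to -0.13 in Brain EC and Chd2 to -0.084 and Chd3 to -0.29 in Kidney EC against translatome. Against transcriptome it turned Chd2 to -0.31, Chd6 to -0.095 and Chd9 to -0.00027 in Brain EC, and Chd1 to -0.15, Chd3 to -0.40 and Chd9 to -0.0043 in Kidney EC.

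The filter of 10 reads in 3 samples left 2 members called for Emx1 against translatome, and 1 fit of all 21 samples left 1. That fit gave 6 for Kidney EC against transcriptome, and turned Chd4 to 0.097 between Brain EC and Kidney EC, Chd2 to -0.017 in Brain EC and Chd3 to -0.058 in Kidney EC against transcriptome. DESeq2 called 5 for Kidney EC against transcriptome, 2 in the organ difference of translatome against transcriptome (0 with edgeR), with 2709 rows in place of 1301, and 1 in the endothelial interaction. The replicate block called 2 members and 3445 rows in that organ difference, and 9496 rows for Kidney translatome against transcriptome (5929 without it). Other changes of call by a block on tissue or number that pairs the samples stand beside their results. In groups that share only a number, same-numbered samples did not all deviate together, and the block moved the count of members called by at most 1. Within a lane, 3736 rows were called for Kidney translatome against transcriptome and Chd7 was -0.0069.

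With 1 library left out, members called ranged from 3 to 5 between Brain EC and Kidney EC, from 2 to 4 for Emx1 against translatome, from 3 to 5 for Kidney EC against transcriptome, and from 0 to 1 in both interactions, and 850 to 1248 rows in the organ difference. Values near 0 changed sign for Chd3 (-0.11 to 0.0014) and Chd7 (-0.11 to 0.021) in Brain and Chd7 (-0.035 to 0.037) in Kidney translatome against transcriptome, Chd4 between Brain EC and Kidney EC (-0.088 to 0.088), Chd2 in Brain EC (-0.097 to 0.10) and Chd3 in Kidney EC (-0.029 to 0.093) against transcriptome, and Chd1 (-0.023 to 0.062) and Chd3 (-0.0075 to 0.14) in the organ difference.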
